A study of Mus musculus with 12 samples.

Results

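The sarcomere is the contractile unit of heart muscle. Here 32 genes that encode its structural proteins, or proteins that assemble and turn it over, were followed in mouse myocardium. They were taken by name from the deposited table of transcript levels, with the transcripts of each gene summed. All 32 were found among the 33641 gene symbols of the table, and all 32 passed the filter of at least 1 TPM in at least 3 of 12 libraries, which 13158 genes passed. TPM (the share of a library's transcripts, scaled to a fixed total) is a level per unit of transcript length, so TPM values can be set side by side between genes. By role, 11 of the genes belong to the thin filament, 7 to the thick filament and M-band, 9 to the Z-disc and intermediate filaments, and 5 to assembly, chaperoning and turnover.

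Each library came from the myocardium of 1 male wild-type C57BL/6 mouse. The 4 groups held 3 mice each: sham surgery with vehicle, sham surgery with weekly prednisone, surgical myocardial infarction (MI) with vehicle, and MI with weekly prednisone. Prednisone is a synthetic glucocorticoid and was injected intraperitoneally at 1 mg/kg at lights-on. Injections began 2 weeks after the operation and were repeated weekly for 6 weeks, and the hearts were collected 24 hours after the final dose. The labels give an age of about 10 weeks in the injection protocol and of about 16 weeks in the description of the mice. They name neither the region of the infarcted heart that was sampled nor the composition of the vehicle, and no allele other than wild type is given for any group.

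In a sarcomere, myosin-containing thick filaments slide along actin-containing thin filaments, and calcium binding to the troponin complex on the thin filament switches contraction on. Thin filaments are anchored at the Z-disc and thick filaments are linked at the M-band, while titin spans from one to the other and the intermediate filament protein desmin ties neighbouring myofibrils together. Dedicated chaperones fold myosin, and muscle-specific ubiquitin ligases take part in the turnover of sarcomere proteins.

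The deposited table gives TPM only, so read depth is unknown and no counting error could be attached to a value. The 32 genes together took 3.54 to 5.36% of each library's TPM. Some libraries stood apart. Vehicle-treated MI replicate 3 had 14307 genes at 1 TPM or more, against 11690 to 12772 in the other libraries, and the median of all tested genes lay 0.74 above the vehicle-treated sham mean on the log2(TPM + 1) scale. Mitochondrially encoded transcripts took 23.1% of that library and 24.6 and 21.6% of prednisone-treated MI replicates 1 and 2, against 32.4 to 42.0% elsewhere. Prednisone-treated MI replicate 3 lay nearest of its group to the prednisone-treated sham mean for 26 of the 32 genes and for 56.8% of all tested genes. The part of these library differences in the results below was not tested. The labelled tissue was checked against 10 cardiomyocyte markers, none of them among the 32, whose summed level was 14889 to 24713 TPM, while 10 skeletal muscle markers summed to 7.56 to 41.0 TPM.

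MI against sham was compared first under vehicle, which sets the infarcted heart beside the operated control without drug. In this comparison 3 of the 32 genes changed: Synpo2l, which encodes a Z-disc protein, rose by 0.89, and the inhibitory troponin subunit Tnni3 and titin, Ttn, fell by 0.52 and 0.67. Libraries entered the fit as 4 groups of 3. These and all later differences between groups are on the log2(TPM + 1) scale from limma, with Benjamini-Hochberg adjustment over all 13158 tested genes and a call at an adjusted p under 0.05. The same rule called 16% of all tested genes, 15.1% higher and 0.904% lower. The median difference of the 32 genes was -0.003, beside 0.39 over all tested genes. Libraries of the 2 groups did not overlap for 5 genes that were higher and 6 that were lower in MI, beside 40.8 and 4.17% of all tested genes. In the same comparison all 10 fibroblast and all 10 macrophage markers were called higher, and their part in these differences was not tested. In bulk tissue, fewer cells of a type and less RNA per cell cannot be told apart. Median-ratio rescaling, which removes the shift of the median gene, gave 0 higher and 2 lower in place of 1 and 2, beside 3.72% of all genes in each direction, with the call of Synpo2l lost. Scaling to the cardiomyocyte markers gave 9 higher and 0 lower, beside 28.5 and 0.122% of all genes, with the calls of Tnni3 and Ttn lost. Before scaling, 0 of these 10 markers were called higher and 2 lower in this comparison, with a median of -0.34. The count of 3 became 0 without vehicle-treated sham replicate 1 or 3, 1 without vehicle-treated sham replicate 2 or prednisone-treated sham replicate 2, and 6 without vehicle-treated MI replicate 1. Without vehicle-treated MI replicate 3 it was 3, all of them higher.

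Under prednisone, 8 of the 32 genes were lower in MI than in sham hearts and none was higher. The thin-filament genes Nebl (-1.81), Fhod3 (-0.89), Tmod1 (-0.48) and Lmod3 (-0.48), the Z-disc genes Mypn (-0.57) and Ldb3 (-0.54), the histone methyltransferase gene Smyd1 (-0.52) and the ubiquitin ligase gene Trim55 (-0.69) made up the 8, and all but Nebl and Fhod3 turned to small positive differences of 0.019 to 0.24 when libraries were scaled to the cardiomyocyte markers. By limma, 14.1% of all tested genes were called lower and 2.73% higher, and at an unadjusted p under 0.05 limma gave 17 of the 32 genes. The share of all tested genes at that unadjusted threshold was not taken, so the 17 cannot be set beside it. The median of the 32 was -0.22, beside -0.06 over all tested genes, and the libraries did not overlap for 4 higher and 13 lower genes, beside 12.9 and 32.2% of all tested genes. Scaling to the cardiomyocyte markers turned the split of 0 higher and 8 lower to 19 higher and 1 lower, Nebl, beside 25.3 and 1.34% of all genes. Unscaled, 0 of these 10 markers were called higher and 6 lower in this comparison, with differences of -2.33 to 0.095 and a median of -0.50. The scaled differences are therefore relative to markers that were themselves mostly lower. Median-ratio rescaling gave 0 higher and 1 lower, again Nebl, beside 11.7 and 14.3%. The count of 8 was 2 without prednisone-treated sham replicate 2 or 3 or prednisone-treated MI replicate 2, 3 without prednisone-treated MI replicate 1, 4 without prednisone-treated sham replicate 1, and 15 without prednisone-treated MI replicate 3.

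Prednisone against vehicle in MI hearts gave 13 calls that fell into 2 directions. Of the genes that rose, 3 encode the troponin complex, namely Tnni3 (0.73), Tnnc1 (0.40) and Tnnt2 (0.39), and the other 2 the myosin light chains Myl2 (0.59) and Myl3 (0.33). The 8 that fell were Nebl (-1.49), Pdlim5 (-0.84), Synpo2l (-0.57), Fhod3 (-0.57), Trim55 (-0.54), Lmod2 (-0.43), Smyd1 (-0.42) and Capzb (-0.40), of which Lmod2, Capzb and Smyd1 turned to differences of 0.026, 0.055 and 0.033 under median-ratio rescaling, and Synpo2l and Smyd1 to 0.022 and 0.12 after the transcript-length correction. Over all tested genes 37.4% were called, 2.5% higher and 34.9% lower, and the median was -0.41 beside -0.17 for the 32 genes. Median-ratio rescaling gave 10 higher and 1 lower in place of 5 and 8, beside 14.6 and 14.2% of all genes, and scaling to the cardiomyocyte markers gave 4 and 2, beside 1.22 and 4.26%. Before scaling, 1 of these 10 markers was called higher and 2 lower in this comparison, with a median of -0.13. Libraries of the 2 groups did not overlap for 8 higher and 6 lower genes, beside 3.59 and 42.6% of all tested genes. The count of 13 fell to 5 without prednisone-treated MI replicate 1, to 4 without replicate 2 of that group, and to 1, Nebl, when only the 2 groups entered the fit. Without vehicle-treated MI replicate 2 it was 8 higher and 3 lower, and without vehicle-treated MI replicate 3 it was 2 higher and 9 lower.

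In sham hearts the same treatment moved no member past the threshold. limma called 0 of 32, beside 0.114% of all tested genes, and 4 of the 32 (Mypn, Des, Unc45b and Flnc) had an unadjusted p under 0.05, all with a positive difference. Differences ran from -0.33 for Myom3 to 0.40 for Mypn, with a median of 0.12 beside 0.07 over all tested genes, and 29 of the 32 were above 0. No share over all tested genes was taken for the unadjusted threshold or for the sign. The libraries did not overlap for 12 genes that were higher with prednisone and 1 that was lower, beside 15.6 and 2.58% of all tested genes. Subtracting the prednisone effect in sham hearts from that in MI hearts tested whether the 2 effects differed. This interaction was called for 4 genes, higher for Tnni3 (0.67) and lower for Nebl (-1.74), Pdlim5 (-0.88) and Mypn (-0.60), beside 21.3% of all tested genes, 0.54% higher and 20.7% lower. Mypn turned to 0.16 after the length correction. Median-ratio rescaling gave 1 higher, Tnni3, and 1 lower, Nebl, beside 5.12 and 4.93% of all genes, and scaling to the cardiomyocyte markers gave 0 in each direction by limma, beside 0.0152 and 0.038%. The count of 4 was 1 without any single vehicle-treated sham library, without prednisone-treated sham replicate 1 or 2, or without prednisone-treated MI replicate 1 or 2. It was 2 without prednisone-treated sham replicate 3 or vehicle-treated MI replicate 2, and it was 9, 7 and 12 without vehicle-treated MI replicate 1, vehicle-treated MI replicate 3 and prednisone-treated MI replicate 3, respectively. Across the 5 comparisons 18 of the 32 genes were called at least once and 14 never; these comparisons share groups, and Nebl, Fhod3, Smyd1 and Trim55 were the 4 called lower both against prednisone-treated sham and against vehicle-treated MI hearts.

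**Figure D1:**
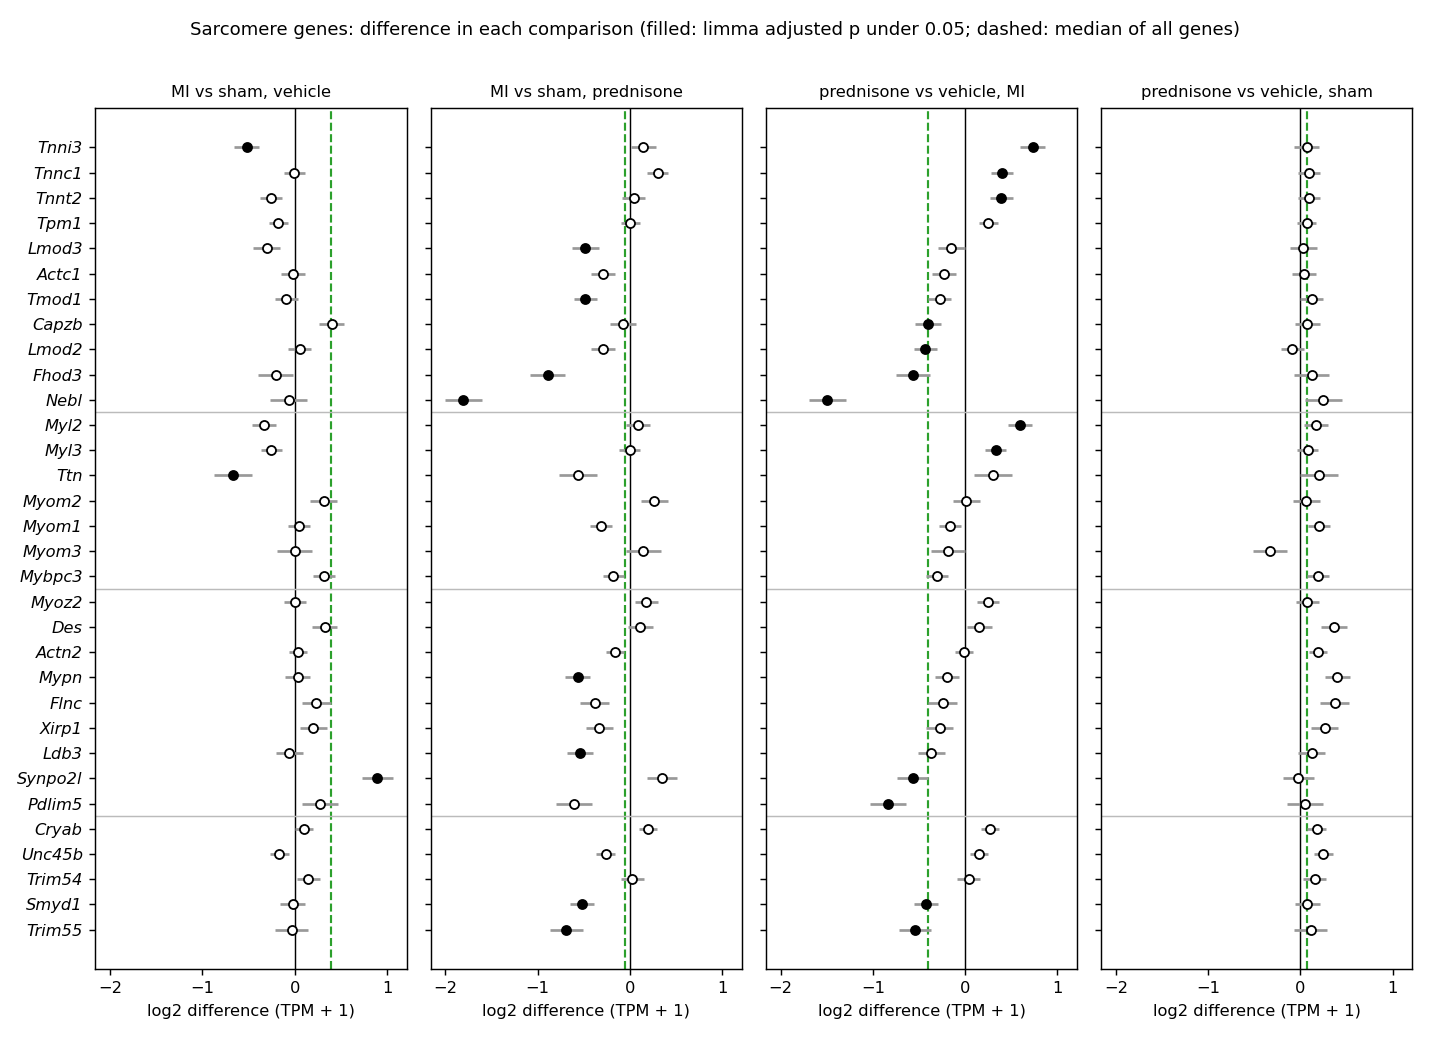
Difference of each of the 32 genes in 4 comparisons, on the log2(TPM + 1) scale (x axis) with its SE; filled points were called by limma, the dashed line is the median of all tested genes, and grey lines separate thin filament, thick filament and M-band, Z-disc, and assembly genes. Calls number 3, 8, 13 and 0 from left to right; 9 of the calls change sign under another scaling, namely 6 in the second panel under scaling to cardiomyocyte markers and 3 in the third under median-ratio rescaling, and Synpo2l in the third does so after the length correction.

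Of the 11 thin-filament genes, 3 rose and 4 fell with prednisone in MI, 4 were lower in MI under prednisone and 1 was lower in MI under vehicle, with medians of -0.23, -0.29 and -0.09. Of all tested genes, 2.5% rose and 34.9% fell with prednisone in MI. Against sham, 14.1% were lower in MI under prednisone and 0.904% under vehicle. The medians over all tested genes were -0.41, -0.06 and 0.39 in the same order. Genes of the troponin complex stood at the highest levels together with cardiac actin and tropomyosin. Tnni3 encodes the subunit that holds the thin filament inhibited at low calcium (chromosome 7, 4518305 to 4524229, minus strand; this and all gene positions are GENCODE M21 on GRCm38). It was measured at 3981, 4099.5 and 4239.7 TPM in the vehicle-treated sham hearts, 3992, 4124 and 4827 TPM in the prednisone-treated sham hearts, 3261, 2919 and 2455 TPM in the vehicle-treated MI hearts and 4786, 5455 and 4100.2 TPM in the prednisone-treated MI hearts. All 3 vehicle-treated MI hearts lay below every other library, and the prednisone-treated MI hearts overlapped both sham groups. The difference between MI and sham under vehicle was -0.52 ± 0.14 (SE), adjusted p = 0.0318, that between prednisone and vehicle in MI was 0.73 ± 0.14 (SE), adjusted p = 0.00307, and the interaction was 0.67 ± 0.19 (SE), adjusted p = 0.0345 by limma. The prednisone call in MI was kept in each of the 12 fits that left out 1 library. The MI call was kept in 6 of 12 and was lost without any vehicle-treated sham library, prednisone-treated sham replicate 2, or vehicle-treated MI replicate 2 or 3, and the interaction call was kept in 5. Part of the gene's level came from Tnni3-202, a retained-intron transcript of 451 bases, at 1011, 1287 and 233 TPM in the prednisone-treated and 66.3, 58.1 and 85.5 TPM in the vehicle-treated MI hearts. The coding Tnni3-201 was at 3650.5, 4022 and 3743 TPM in the former and 2975, 2715 and 2289 TPM in the latter, again without overlap.

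Tnnc1 encodes the calcium-binding subunit of the same complex (chromosome 14, 31208312 to 31211729, plus strand). Its level was 2144, 2155 and 2280.0 TPM in the vehicle-treated sham hearts, 2142, 2353 and 2531 TPM in the prednisone-treated sham hearts, 2248, 2375 and 1949 TPM in the vehicle-treated MI hearts and 2932, 3196 and 2543 TPM in the prednisone-treated MI hearts. The prednisone-treated MI libraries lay above those of every other group. limma gave 0.40 ± 0.12 (SE), adjusted p = 0.0207, for prednisone against vehicle in MI and 0.30 with an adjusted p of 0.101 against prednisone-treated sham hearts. Tnnt2, which anchors the complex to tropomyosin, averaged 4861 ± 707 TPM in vehicle-treated and 6338 ± 347 TPM in prednisone-treated MI hearts (SD, n = 3 each), a difference of 0.39 ± 0.12 (SE), adjusted p = 0.0275 by limma. Tropomyosin, Tpm1, averaged 6003 ± 104, 6308 ± 574, 5318 ± 530.0 and 6312 ± 207 TPM (SD, n = 3) in vehicle-treated sham, prednisone-treated sham, vehicle-treated MI and prednisone-treated MI hearts. Its libraries did not overlap between the MI groups, but the difference of 0.25 had an adjusted p of 0.077 and was not called. Cardiac actin, Actc1, averaged 5296 ± 430.2, 5438 ± 262, 5222 ± 466 and 4474 ± 761 TPM (SD, n = 3) in the same order and was called in no comparison.

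**Figure D2:**
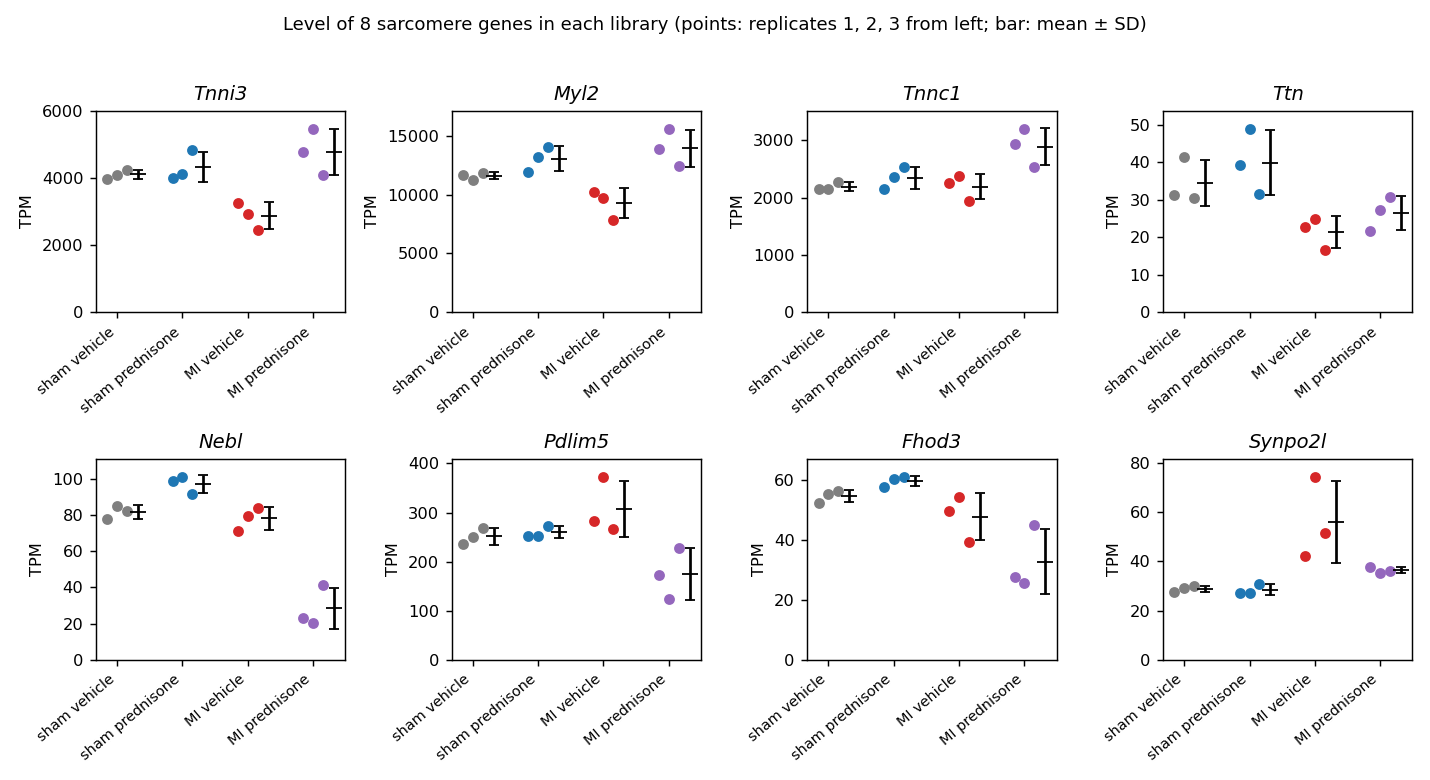
Level of 8 of the genes in each library (y axis, TPM, from 0), with the replicates of each group as points and the group mean with its SD beside them. Tnni3 and Myl2 are lowest in the 3 vehicle-treated MI hearts, Tnnc1 is highest in the prednisone-treated MI hearts, and Nebl lies between 20.5 and 41.3 TPM in the prednisone-treated MI hearts and between 71.3 and 101 TPM in all others.

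Nebl showed the largest difference of the 32 genes. It encodes nebulette, an actin-binding protein of the cardiac Z-disc that reaches along the thin filament (chromosome 2, 17343909 to 17731464, minus strand). The gene was measured at 77.6, 85.2 and 82.3 TPM in the vehicle-treated sham hearts, 98.8, 101 and 91.8 TPM in the prednisone-treated sham hearts, 71.3, 79.7 and 83.7 TPM in the vehicle-treated MI hearts and 23.3, 20.5 and 41.3 TPM in the prednisone-treated MI hearts. Every prednisone-treated MI heart was below every other library, and replicate 3 was the highest of the 3. The difference was -1.81 ± 0.20 (SE), adjusted p = 0.00116, against prednisone-treated sham hearts and -1.49 ± 0.20 (SE), adjusted p = 0.000964, against vehicle-treated MI hearts, while MI under vehicle differed from sham by -0.064 with an adjusted p of 0.803, all by limma. The interaction was -1.74 ± 0.28 (SE), adjusted p = 0.00631. All 3 calls were kept in each of the 12 fits that left out 1 library. The interaction call was lost when libraries were scaled to the cardiomyocyte markers (-1.33, adjusted p = 0.0904 by limma) and after the length correction (-1.14, adjusted p = 0.0912). Rescaling kept the direction: prednisone against vehicle in MI was -1.04 after median-ratio rescaling, -1.22 after scaling to the cardiomyocyte markers and -0.98 after the length correction, each called by limma.

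The Nebl locus makes both long nebulette transcripts and a short form, Nebl-201, which starts far upstream at position 17731043 and has 7 exons and 270 codons, against 28 exons and 1014 codons in the long Nebl-202. Nebl-201 held 3.57 to 6.07% of the gene's TPM in the 9 libraries outside the prednisone-treated MI group and 45.7, 33.2 and 21.5% in prednisone-treated MI replicates 1 to 3. In TPM it was 2.84 to 4.98 in the first 9 libraries and 10.7, 6.82 and 8.87 in the last 3, so the short form was higher while the gene total was lower. Its mean share was under 10%, so it was not among the tested transcripts, and it was picked out after its values were seen. Nebl-210, a 5′ fragment of the long form, held 19.5, 18.0 and 10.5% in vehicle-treated and 0, 1.85 and 9.45% in prednisone-treated MI hearts, where its ratio to the rest of the gene differed by -1.49 ± 0.41 (SE, log2; adjusted p = 0.0152 by limma). Of 4 RefSeq promoter windows of the locus (GRCm38.p6, 250 bases before to 50 after a start site), the 2 that lie closest to an annotated transcript start are shown for that reason. One starts 91 bases from Nebl-201, and the other starts 67 bases from Nebl-207, at the shared start of the 5′ forms Nebl-206 and Nebl-207 (526 and 452 codons); Nebl-202 and Nebl-210 start further downstream, at positions 17460932 and 17460621. Nebl-206 held 6.89, 6.58 and 6.17% of the gene in vehicle-treated and 7.64, 4.23 and 3.18% in prednisone-treated MI hearts. Capitals mark a CArG match, the motif bound by serum response factor; no searched motif was found in the upstream window, which says only that those letters are not in it.
Nebl start nearest Nebl-207, chr2:17462807-17463106, minus strand: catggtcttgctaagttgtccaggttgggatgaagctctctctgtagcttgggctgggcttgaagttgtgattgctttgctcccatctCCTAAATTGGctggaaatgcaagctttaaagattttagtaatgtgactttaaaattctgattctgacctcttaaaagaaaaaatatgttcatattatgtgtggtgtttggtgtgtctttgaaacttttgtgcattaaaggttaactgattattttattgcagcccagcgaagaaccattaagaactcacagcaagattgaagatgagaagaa
Nebl start nearest Nebl-201, chr2:17731085-17731384, minus strand: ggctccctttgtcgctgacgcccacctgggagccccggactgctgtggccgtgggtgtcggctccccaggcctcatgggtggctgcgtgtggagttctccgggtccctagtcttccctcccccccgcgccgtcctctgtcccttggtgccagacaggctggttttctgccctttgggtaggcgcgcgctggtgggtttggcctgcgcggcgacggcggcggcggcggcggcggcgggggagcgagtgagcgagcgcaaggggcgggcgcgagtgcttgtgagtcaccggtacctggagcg

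The remaining thin-filament genes control filament length and capping. Fhod3, a formin that promotes actin filament assembly in cardiac myofibrils, was measured at 52.3, 55.2 and 56.4 TPM in the vehicle-treated sham hearts, 57.6, 60.1 and 60.9 TPM in the prednisone-treated sham hearts, 49.7, 54.2 and 39.2 TPM in the vehicle-treated MI hearts and 27.4, 25.5 and 45.0 TPM in the prednisone-treated MI hearts. Prednisone-treated MI replicates 1 and 2 lay below all other libraries, while replicate 3 fell within the range of the vehicle-treated MI hearts. limma gave -0.89 ± 0.19 (SE), adjusted p = 0.0091, against prednisone-treated sham hearts, kept in each of the 12 fits that left out 1 library, and -0.57 ± 0.19 (SE), adjusted p = 0.0359, against vehicle-treated MI hearts, kept in 4 of the 12. The first call was lost under median-ratio rescaling (-0.79, adjusted p = 0.0563 by limma) and when libraries were scaled to the cardiomyocyte markers (-0.18, adjusted p = 0.296).

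Tmod1 caps the pointed end of the thin filament (chromosome 4, 46038935 to 46116032, plus strand). It stood at 105, 107 and 109 TPM in the vehicle-treated sham hearts, 109.8, 111 and 128 TPM in the prednisone-treated sham hearts, 102, 109 and 90.7 TPM in the vehicle-treated MI hearts and 81.5, 71.0 and 98.0 TPM in the prednisone-treated MI hearts. The 2 prednisone-treated groups did not overlap, and the lower of them was the MI group, by -0.48 ± 0.12 (SE), adjusted p = 0.0228 (limma; kept in 8 of the 12 fits). Lmod2 and Lmod3 are leiomodins, relatives of tropomodulin that lengthen thin filaments. Lmod2 (chromosome 6, 24597762 to 24605414, plus strand) was at 286, 278 and 302 TPM in the vehicle-treated sham hearts, 258, 294 and 263 TPM in the prednisone-treated sham hearts, 302, 332 and 268 TPM in the vehicle-treated MI hearts and 214, 192 and 265 TPM in the prednisone-treated MI hearts. It was lower in prednisone-treated than in vehicle-treated MI hearts without overlap, by -0.43 ± 0.13 (SE), adjusted p = 0.0215 (limma; kept in 9 of the 12 fits). Lmod3 (chromosome 6, 97238534 to 97252759, minus strand) was at 42.9, 40.2 and 47.7 TPM in the vehicle-treated sham hearts, 41.9, 42.4 and 49.6 TPM in the prednisone-treated sham hearts, 40.5, 36.3 and 29.5 TPM in the vehicle-treated MI hearts and 29.5, 28.1 and 37.7 TPM in the prednisone-treated MI hearts. Its libraries overlapped between the MI groups and not between the prednisone-treated groups. The difference was -0.48 ± 0.15 (SE), adjusted p = 0.0447, between the 2 prednisone-treated groups, kept in 3 of the 12 fits, and -0.15 between the MI groups, the smallest change with prednisone in MI among thin-filament genes.

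Capzb encodes the beta subunit of the capping protein CapZ, which holds the barbed end of actin at the Z-disc in one isoform and serves other actin structures of the cell in another (chromosome 4, 139192899 to 139291818, plus strand). Its level averaged 112 ± 3.75 and 119 ± 14.1 TPM in vehicle-treated and prednisone-treated sham hearts and 151 ± 29.8 and 112 ± 3.38 TPM in vehicle-treated and prednisone-treated MI hearts (SD, n = 3). All 3 vehicle-treated MI hearts were above the vehicle-treated sham hearts, with 0.40 ± 0.14 (SE), adjusted p = 0.0616, not called, and prednisone against vehicle in MI gave -0.40 ± 0.14 (SE), adjusted p = 0.038 (limma; kept in 3 of the 12 fits that left out 1 library, and turned to 0.055 by median-ratio rescaling). The isoforms differ at the C-terminus through an exon of 113 bases that Capzb-203 includes as exon 9 and Capzb-204 skips, which gives 277 and 272 codons. Capzb-204 held 8.21, 12.8 and 9.32% of the gene in vehicle-treated sham hearts and 19.9, 16.7 and 38.4% in vehicle-treated MI hearts, with no overlap. Its ratio to the rest of the gene differed by 1.43 ± 0.44 (SE, log2) with an unadjusted p of 0.00781 and an adjusted p of 0.468, which was not called. In the same hearts summed fibroblast markers were 1238 to 1848 TPM against 527 to 694 TPM in vehicle-treated sham hearts, and summed macrophage markers 697 to 1467 against 318 to 444 TPM; their part in the shift of Capzb was not tested. The part of exon 9 up to its stop codon (capitals) is printed from the GENCODE M21 transcripts because it is the sequence by which the 2 forms differ.
Capzb-203 exon 9, chr4:139288861-139288963, plus strand, GRCm38: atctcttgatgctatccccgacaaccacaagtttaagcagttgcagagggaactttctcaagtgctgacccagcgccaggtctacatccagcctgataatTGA

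Of the 7 thick-filament and M-band genes, 2 rose with prednisone in MI (median 0.013), 1 fell in MI under vehicle, and none was called in MI under prednisone by limma. Of all tested genes, 2.5% rose with prednisone in MI (median -0.41). In the other comparisons 0.904% fell in MI under vehicle, and 16.8% were called in MI under prednisone. The 2 ventricular myosin light chains moved with the troponins. Myl2, the regulatory light chain (chromosome 5, 122100951 to 122113472, plus strand), had the highest mean level of the 32 genes. It stood at 11719, 11294 and 11899.6 TPM in the vehicle-treated sham hearts, 11944, 13258 and 14066 TPM in the prednisone-treated sham hearts, 10277, 9763 and 7857 TPM in the vehicle-treated MI hearts and 13887, 15609 and 12437 TPM in the prednisone-treated MI hearts. The vehicle-treated MI hearts were the 3 lowest libraries and did not overlap any other group. limma gave 0.59 ± 0.13 (SE), adjusted p = 0.00618, for prednisone against vehicle in MI, kept in each of the 12 fits that left out 1 library, and -0.33 ± 0.13 (SE), adjusted p = 0.085, for MI against sham under vehicle, which was not called. Myl3, the essential light chain, averaged 4399 ± 539.6 TPM in vehicle-treated and 5504 ± 333 TPM in prednisone-treated MI hearts (SD, n = 3), with 0.33 ± 0.11 (SE), adjusted p = 0.0407; that call was kept in 3 of the 12 fits.

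The summed level of 8 atrial markers, among them the atrial light chains Myl7 and Myl4, was 4435 to 6278 TPM in prednisone-treated MI hearts, 2861 to 4195 TPM in vehicle-treated MI hearts, 877 to 2574 TPM in vehicle-treated sham hearts and 2050 to 2771 TPM in prednisone-treated sham hearts. With prednisone in MI all 8 had a positive difference, and limma called 3 of them. For MI against sham under vehicle 3 had a positive and 5 a negative difference, with 1 called higher and a median of -0.48. The sums for those 2 groups therefore do not describe most of the list. Fibroblast markers summed to 551 to 871 TPM and macrophage markers to 352 to 631 TPM in the prednisone-treated MI hearts, and 9 of 10 and 7 of 10 of them were called lower than in vehicle-treated MI hearts. The part of these differences in the rise of the light chains and troponins was not tested. Endothelial markers summed to 255 to 416 TPM in all libraries, smooth muscle markers to 138 to 233 TPM, adipocyte markers to 17.5 to 1683 TPM and erythroid markers to 26712 to 98114 TPM. With prednisone in MI, 1 of 8 endothelial markers was called higher and 4 lower, 2 of 6 smooth muscle markers were lower, and none of the adipocyte, erythroid or 4 tested skeletal muscle markers was called by limma. No marker of any list was at 0 in all libraries of a group.

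Ttn encodes titin, the spring that spans from Z-disc to M-band (chromosome 2, 76703980 to 76982547, minus strand). It was measured at 31.4, 41.5 and 30.4 TPM in the vehicle-treated sham hearts, 39.3, 48.9 and 31.6 TPM in the prednisone-treated sham hearts, 22.7, 24.7 and 16.7 TPM in the vehicle-treated MI hearts and 21.6, 27.3 and 30.7 TPM in the prednisone-treated MI hearts. Vehicle-treated MI hearts lay below every vehicle-treated sham heart. The difference was -0.67 ± 0.20 (SE), adjusted p = 0.048 by limma, a call kept in 2 of the 12 fits that left out 1 library, those without vehicle-treated MI replicate 1 or 2; under prednisone it was -0.56 with an adjusted p of 0.0832. Myosin-binding protein C, Mybpc3, averaged 611 ± 30.8, 698 ± 40.6, 769 ± 129 and 616 ± 25.6 TPM (SD, n = 3) in vehicle-treated sham, prednisone-treated sham, vehicle-treated MI and prednisone-treated MI hearts. It was higher in every vehicle-treated MI heart than in the vehicle-treated sham hearts, by 0.32 (adjusted p = 0.0728 by limma), and was not called.

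The M-band proteins, which cross-link thick filaments, were called in no comparison of gene levels. Myom2 had the smallest change with prednisone in MI of the thick-filament group (0.013) and was measured at 205, 184 and 216 TPM in the vehicle-treated sham hearts, 197, 214 and 220.0 TPM in the prednisone-treated sham hearts, 243, 319 and 203 TPM in the vehicle-treated MI hearts and 239.7, 262 and 257 TPM in the prednisone-treated MI hearts. For the gene total, all 3 prednisone-treated MI hearts were above all 6 sham hearts, and the vehicle-treated MI hearts overlapped both sham groups. Myom2-205, a transcript without an annotated reading frame, made up 87.1, 108 and 80.3 TPM in prednisone-treated MI hearts and 10.6 to 25.4 TPM elsewhere. The full-length Myom2-201 was at 151, 152 and 175 TPM in prednisone-treated MI hearts, below the 186 to 274 TPM of vehicle-treated MI hearts. In sham hearts Myom2-201 was at 168 to 194 TPM. Myom1 averaged 192 ± 6.44 and 221 ± 13.1 TPM in vehicle-treated and prednisone-treated sham hearts and 199.9 ± 31.7 and 177 ± 17.0 TPM in vehicle-treated and prednisone-treated MI hearts (SD, n = 3). Myom3 was at 0.607 to 1.64 TPM in all 12 libraries, close to the filter limit and to the pseudocount of 1. Of that level 92.4% lay in Myom3-203, a retained-intron transcript, and 4.50% in the coding Myom3-201.

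Of the 9 Z-disc and intermediate-filament genes, 2 fell with prednisone in MI and 2 were lower in MI under prednisone, with medians of -0.24 and -0.33. Over all tested genes 34.9 and 14.1% were called lower in the same order, with medians of -0.41 and -0.06. Synpo2l was the one gene that rose with MI under vehicle. It encodes an actin-bundling relative of synaptopodin found at the Z-disc (chromosome 14, 20658946 to 20668354, minus strand). The gene stood at 27.6, 29.1 and 30.0 TPM in the vehicle-treated sham hearts, 27.2, 27.2 and 31.0 TPM in the prednisone-treated sham hearts, 42.1, 74.4 and 51.6 TPM in the vehicle-treated MI hearts and 37.8, 35.2 and 36.3 TPM in the prednisone-treated MI hearts. All 6 MI libraries were above all 6 sham libraries, and the 3 vehicle-treated ones were above the 3 prednisone-treated ones. limma gave 0.89 ± 0.17 (SE), adjusted p = 0.0115, for MI against sham under vehicle, 0.35 ± 0.17 (SE), adjusted p = 0.188, under prednisone, and -0.57 ± 0.17 (SE), adjusted p = 0.0219, for prednisone against vehicle in MI. The MI call was kept in 10 of the 12 fits that left out 1 library and was lost without vehicle-treated sham replicate 1 or 3; median-ratio rescaling lowered the difference to 0.46 with an adjusted p of 0.176. The prednisone call was lost without prednisone-treated MI replicate 1 or 2, and was reversed by the length correction as given above.

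Synpo2l has 2 RefSeq start sites, and its transcripts moved unequally. Synpo2l-203 begins at the inner start (position 20664574) and has 2 exons and 749 codons, while Synpo2l-201 and Synpo2l-202 begin at positions 20668306 and 20668354 and have 4 exons with 975 and 978 codons. The share of Synpo2l-203 in the gene's TPM was 30.0, 29.4 and 27.0% in vehicle-treated sham hearts, 33.5, 33.5 and 22.5% in prednisone-treated sham hearts, 51.8, 67.2 and 64.7% in vehicle-treated MI hearts and 84.1, 88.6 and 70.1% in prednisone-treated MI hearts. No library of an MI group overlapped a sham group, and the 2 MI groups did not overlap each other. The ratio of Synpo2l-203 to the rest of the gene differed by 1.86 ± 0.39 (SE, log2) between MI and sham under vehicle, with an unadjusted p of 0.000551 and an adjusted p of 0.28, which was not called. Under prednisone the difference was 3.18 ± 0.39 (adjusted p = 0.000209, limma), and prednisone against vehicle in MI gave 1.37 ± 0.39 (adjusted p = 0.0176, limma). Both RefSeq promoter windows (GRCm38.p6) hold a match to the motif of MEF2, a family of muscle transcription factors, shown in capitals, 144 bases before the inner start and 109 bases before the outer one; they are printed because these are the starts between which the shares moved.
Synpo2l inner start, chr14:20664525-20664824, minus strand: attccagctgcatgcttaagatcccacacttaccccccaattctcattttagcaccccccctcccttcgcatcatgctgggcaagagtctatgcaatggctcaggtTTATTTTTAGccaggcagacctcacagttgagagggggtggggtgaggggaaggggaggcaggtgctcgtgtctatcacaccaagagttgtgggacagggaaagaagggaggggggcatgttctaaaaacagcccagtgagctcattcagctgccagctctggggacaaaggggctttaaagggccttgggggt
Synpo2l outer start, chr14:20668305-20668604, minus strand: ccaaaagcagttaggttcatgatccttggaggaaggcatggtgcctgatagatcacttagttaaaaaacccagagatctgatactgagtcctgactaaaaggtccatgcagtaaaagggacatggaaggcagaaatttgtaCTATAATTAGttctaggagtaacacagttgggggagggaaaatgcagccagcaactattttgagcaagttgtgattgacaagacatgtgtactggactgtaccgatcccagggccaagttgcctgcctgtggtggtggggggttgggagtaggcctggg

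Pdlim5, also called ENH, carries a PDZ domain that binds alpha-actinin and LIM domains that bind signalling enzymes (chromosome 3, 142239590 to 142395696, minus strand). It was measured at 235, 251 and 269 TPM in the vehicle-treated sham hearts, 253, 252 and 273 TPM in the prednisone-treated sham hearts, 283, 372 and 267 TPM in the vehicle-treated MI hearts and 173, 123 and 229 TPM in the prednisone-treated MI hearts. The prednisone-treated MI hearts were the 3 lowest libraries. limma gave -0.84 ± 0.19 (SE), adjusted p = 0.00767, against vehicle-treated MI hearts, kept in each of the 12 fits that left out 1 library, and an interaction of -0.88 ± 0.27 (SE), adjusted p = 0.0424, kept in 3 of the 12. After median-ratio rescaling prednisone against vehicle in MI was -0.38 with an adjusted p of 0.321 by limma. Most of the gene's TPM lay in short forms. Pdlim5-205, Pdlim5-204 and Pdlim5-202 held 38.1, 34.4 and 16.9% over all libraries and have 239, 234 and 239 codons. The longer Pdlim5-201 and Pdlim5-206 have 591 and 614 codons. Which of the domains named above the short forms encode was not tested. Mypn, myopalladin, links nebulette and alpha-actinin at the Z-disc (chromosome 10, 63115795 to 63203952, minus strand). It stood at 17.1, 18.5 and 18.7 TPM in the vehicle-treated sham hearts, 22.2, 24.9 and 25.5 TPM in the prednisone-treated sham hearts, 17.4, 20.5 and 17.7 TPM in the vehicle-treated MI hearts and 16.9, 13.1 and 18.6 TPM in the prednisone-treated MI hearts. Prednisone-treated sham hearts were above every other library, and the 2 prednisone-treated groups differed by -0.57 ± 0.13 (SE), adjusted p = 0.0156 with MI the lower (limma; kept in 9 of the 12 fits).

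Actn2, alpha-actinin 2, the main cross-linker of the Z-disc (chromosome 13, 12269426 to 12340760, minus strand), changed least with prednisone in MI among the Z-disc genes (-0.011). It was measured at 408, 422 and 426 TPM in the vehicle-treated sham hearts, 445, 487 and 504 TPM in the prednisone-treated sham hearts, 409, 490.4 and 397 TPM in the vehicle-treated MI hearts and 404, 426 and 451 TPM in the prednisone-treated MI hearts, and no call was made. Ldb3, which encodes the alpha-actinin-binding protein ZASP or Cypher, averaged 416 ± 19.9 TPM in prednisone-treated sham and 289 ± 61.5 TPM in prednisone-treated MI hearts (SD, n = 3), a difference of -0.54 ± 0.14 (SE), adjusted p = 0.0253 (limma). Desmin, Des, averaged 392 ± 22.0, 505 ± 43.7, 497 ± 103 and 546 ± 39.7 TPM (SD, n = 3) in vehicle-treated sham, prednisone-treated sham, vehicle-treated MI and prednisone-treated MI hearts. The vehicle-treated sham hearts were the 3 lowest for Des, but no comparison was called. The actin cross-linker filamin C (Flnc), the actin-binding repair protein Xirp1 and the calcineurin-binding protein Myoz2 were called nowhere, with differences of -0.27 to 0.25 for prednisone against vehicle in MI.

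Of the 5 assembly and turnover genes, Smyd1 and Trim55 were called lower in both comparisons that involve prednisone-treated MI hearts. Of all tested genes, 14.1% were called lower against prednisone-treated sham hearts and 34.9% against vehicle-treated MI hearts. Smyd1 encodes a muscle-specific histone methyltransferase that also associates with myosin (chromosome 6, 71213940 to 71322233, minus strand). Its level was 122, 128 and 131 TPM in the vehicle-treated sham hearts, 132, 129 and 139.7 TPM in the prednisone-treated sham hearts, 130.3, 136 and 110.0 TPM in the vehicle-treated MI hearts and 88.6, 78.7 and 115 TPM in the prednisone-treated MI hearts. Prednisone-treated MI replicates 1 and 2 were the lowest libraries, and replicate 3 lay within the vehicle-treated MI range. limma gave -0.52 ± 0.13 (SE), adjusted p = 0.023, against prednisone-treated sham and -0.42 ± 0.13 (SE), adjusted p = 0.0295, against vehicle-treated MI hearts. Trim55 encodes MuRF2, a ubiquitin ligase found at the M-band and on microtubules (chromosome 3, 19644474 to 19692421, plus strand). It stood at 29.3, 31.7 and 33.1 TPM in the vehicle-treated sham hearts, 32.4, 32.9 and 36.8 TPM in the prednisone-treated sham hearts, 30.8, 34.0 and 27.5 TPM in the vehicle-treated MI hearts and 18.3, 16.6 and 29.2 TPM in the prednisone-treated MI hearts. Replicates 1 and 2 of the prednisone-treated MI group were again the lowest, and limma gave -0.69 ± 0.18 (SE), adjusted p = 0.0233, and -0.54 ± 0.18 (SE), adjusted p = 0.0336, in the same 2 comparisons, which share the prednisone-treated MI libraries. For each gene the first call was kept in 7 and the second in 8 of the 12 fits that left out 1 library, and each was lost without prednisone-treated MI replicate 1 or 2.

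Trim54, which encodes the related ligase MuRF3, changed least of the 5 with prednisone in MI (0.036) and was measured at 127, 132 and 144 TPM in the vehicle-treated sham hearts, 137, 153 and 161 TPM in the prednisone-treated sham hearts, 140.2, 180.2 and 130.1 TPM in the vehicle-treated MI hearts and 153, 159 and 146 TPM in the prednisone-treated MI hearts. Its groups overlapped in every comparison. The myosin chaperone Unc45b averaged 64.4 ± 2.79, 76.9 ± 7.68, 57.3 ± 1.39 and 63.8 ± 5.43 TPM (SD, n = 3) in vehicle-treated sham, prednisone-treated sham, vehicle-treated MI and prednisone-treated MI hearts and was not called. The small heat shock protein Cryab, which protects desmin and titin, averaged 1333 ± 64.9, 1505 ± 105, 1435 ± 130.3 and 1725 ± 94.7 TPM in the same order. Its prednisone-treated MI libraries were the 3 highest, and prednisone against vehicle in MI gave 0.27 (adjusted p = 0.0517 by limma), just outside the threshold.

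The genes that rose and fell with prednisone in MI differed in transcript length. A TPM-weighted length was available for 29 of the 32 genes (not for Fhod3, Ldb3 and Myom1). The 8 genes under 1250 bases, which include all 5 that rose, had a median difference of 0.36, the 7 between 1250 and 2500 bases a median of -0.40, and the 14 longer ones a median of -0.22. Across the 29 genes, Spearman's rho between length and the prednisone difference in MI was -0.54, or -0.64 without Ttn, and over 11326 tested genes with a length it was -0.39; genes of 1 library share that library and are not independent, so no p is given. Against the vehicle-treated sham mean, rho over the 29 genes was -0.43, -0.43 and -0.07 in prednisone-treated MI replicates 1, 2 and 3, and 0.30 to 0.40 in the vehicle-treated MI libraries. In sham replicates 1 to 3 it was -0.34, 0.51 and -0.28 with vehicle and 0.50, 0.41 and -0.13 with prednisone. Over the 11326 genes it was -0.39, -0.40 and -0.26 in the prednisone-treated MI replicates and -0.12 to 0.24 in all other libraries. After a correction for length in each library, 4 of 29 genes were called higher and 1 lower with prednisone in MI, beside 8.72 and 7.53% of 11326 genes. Tnni3 was then 0.86 and Ttn 0.97, both called, and Myl2, Tnnc1, Tnnt2 and Myl3 kept positive differences of 0.45 to 0.82 that were not called. Before the correction Ttn was 0.30 and not called (adjusted p = 0.251 by limma). Its length of 62897 bases is far from that of the next longest of the 29, Flnc at 8510 bases. How well the correction holds at that length was not tested.

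**Figure D3:**
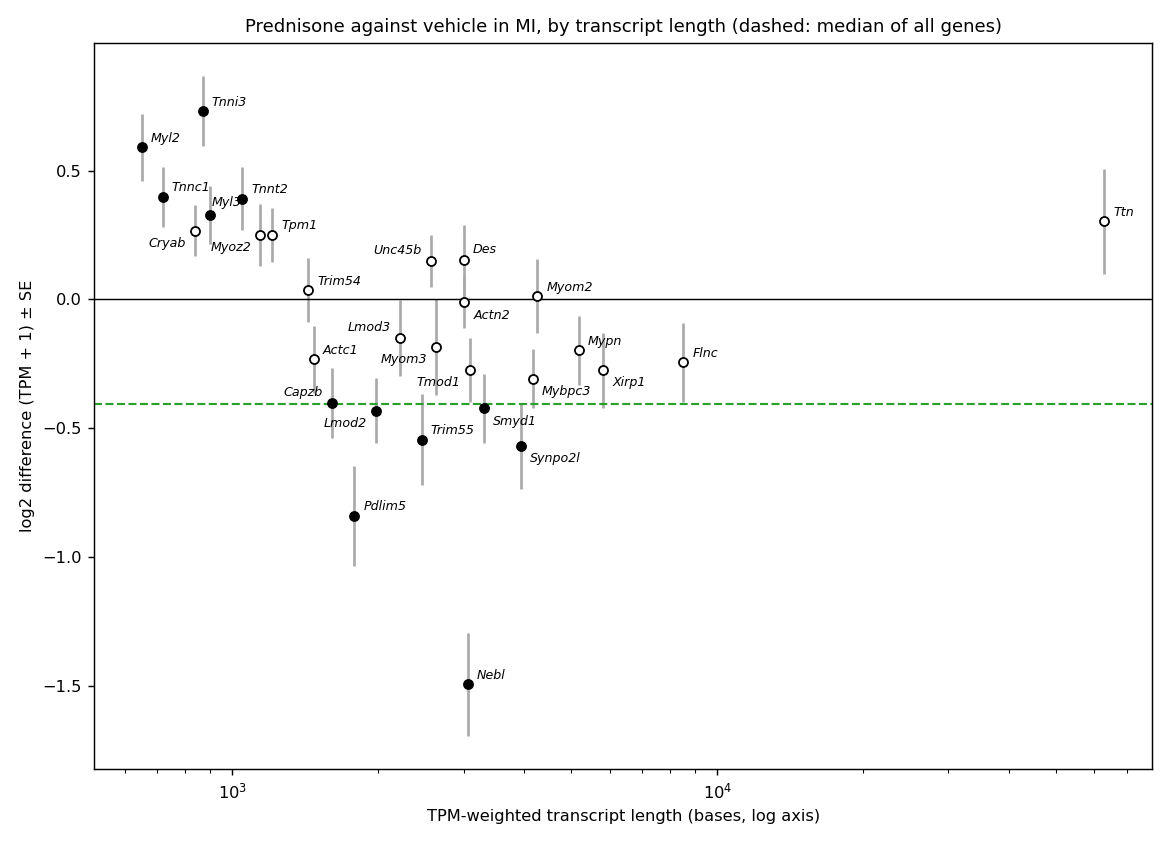
Difference between prednisone and vehicle in MI hearts on the log2(TPM + 1) scale (y axis, with SE) against the TPM-weighted transcript length (x axis, log scale) for the 29 genes with a length; filled points were called by limma and the dashed line is the median of all tested genes. The 5 called higher are all shorter than 1250 bases and the 7 called lower shown here are longer; of these, Lmod2, Capzb, Smyd1 and Synpo2l change sign under another scaling or the length correction.

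Transcript shares were tested within genes, since a share does not move with the scaling of a library. Of 12118 transcripts tested, 28 belong to 14 of the 32 genes. The prednisone-treated MI libraries stood apart in transcript shares over the whole table: limma called 38.4% of all tested transcripts against prednisone-treated sham hearts and 37% against vehicle-treated MI hearts, but 0.0413% for MI against sham under vehicle and 0% for prednisone against vehicle in sham. Of the 28, the counts were 13 (5 higher and 8 lower, beside 17.9 and 20.5% of all), 12 (5 higher and 7 lower, beside 17.8 and 19.2%), 0 and 0, and the last 2 comparisons had 9 and 2 transcripts with an unadjusted p under 0.05. The share of all tested transcripts at the unadjusted threshold was not taken. The interaction was called for 4 of the 28 (1 higher and 3 lower), beside 23.2% of all, 11.6% in each direction.

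Among transcripts called for prednisone against vehicle in MI, the largest shift was in Myom2. Myom2-205, a transcript of 744 bases without an annotated reading frame that lies over exons of the 3′ part of the gene, held 5.21 to 11.8% of the gene in the 9 libraries outside the prednisone-treated MI group and 36.3, 41.3 and 31.2% in prednisone-treated MI replicates 1 to 3. Its ratio to the rest of the gene differed by 3.01 ± 0.28 (SE, log2; adjusted p = 4.77e-05 by limma) from vehicle-treated MI hearts, and the full-length Myom2-201 by -2.24 ± 0.30 (adjusted p = 0.000379). Both calls were kept in each of the 12 fits that left out 1 library. Pdlim5-202 held 17.3 to 22.0% in the same 9 libraries and 2.67, 2.08 and 9.87% in the prednisone-treated MI hearts, with -2.25 ± 0.42 (adjusted p = 0.00214 by limma) against vehicle-treated MI hearts. Tnnt2-201 and Tnnt2-211 moved in opposite directions between the MI groups, by 0.69 ± 0.19 and -0.72 ± 0.20 (adjusted p = 0.0156 and 0.0161 by limma).

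**Figure D4:**
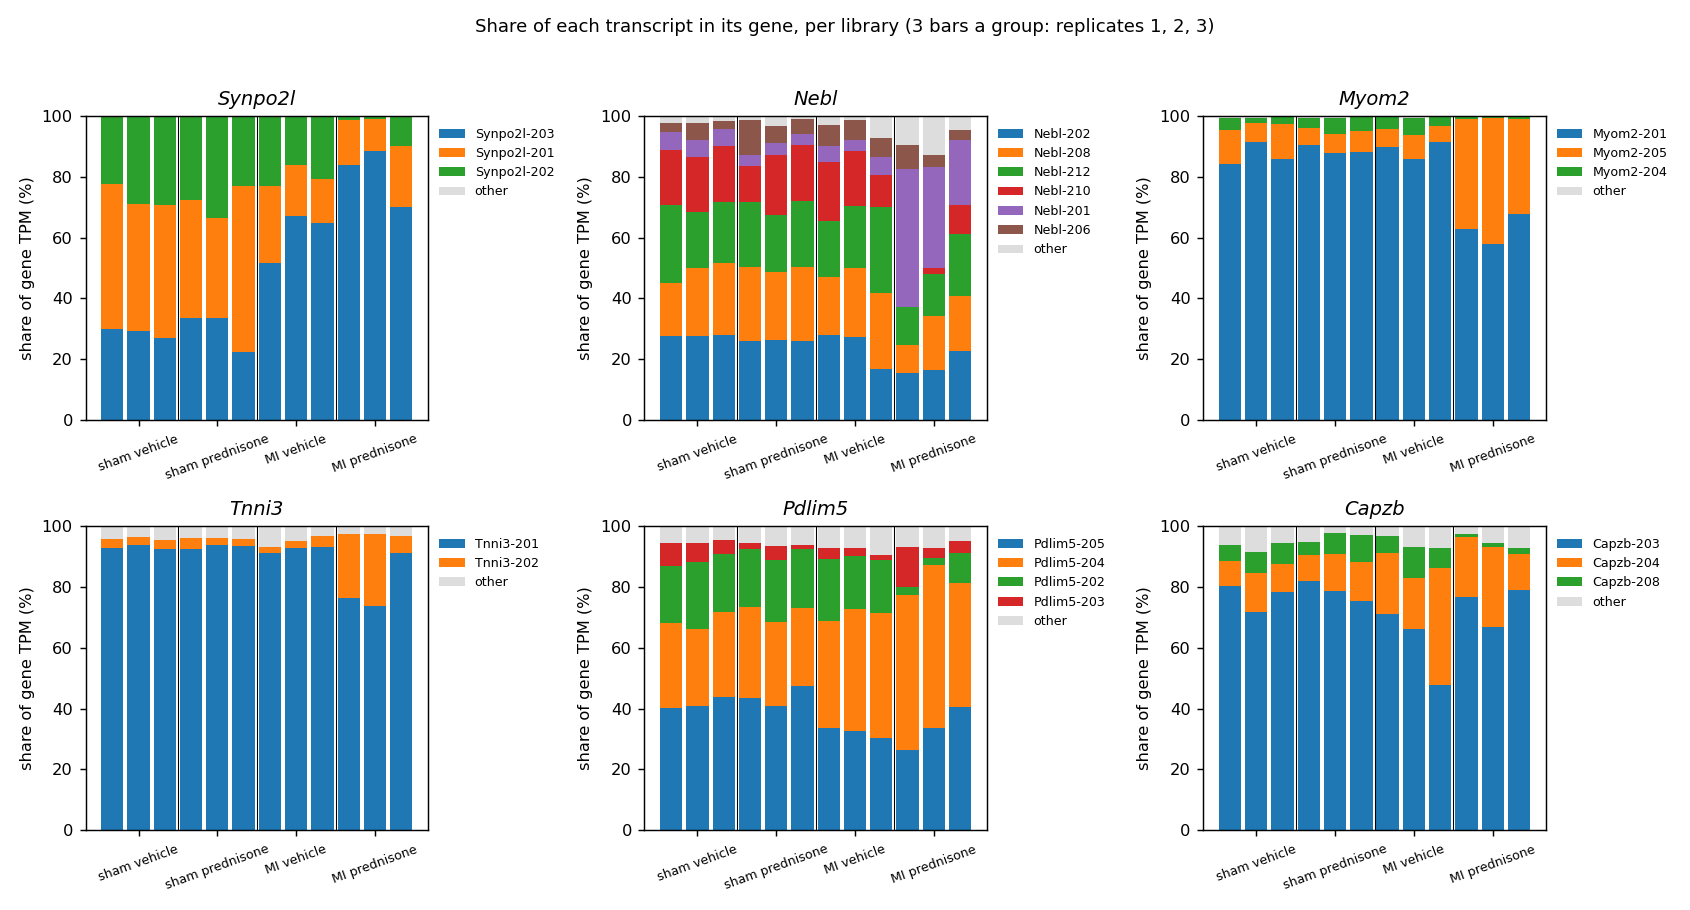
Share of each transcript in its gene's TPM (y axis, %) for 6 genes, 1 bar per library with replicates 1 to 3 of each group side by side; grey is all other transcripts. Synpo2l-203 takes 22.5 to 33.5% in sham hearts, 51.8 to 67.2% in vehicle-treated MI hearts and 70.1 to 88.6% in prednisone-treated MI hearts, and Nebl-201 and Myom2-205 widen in the prednisone-treated MI hearts.

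RefSeq promoter windows were at hand for 26 of the 32 genes, 35 windows in all, and were searched on both strands. A CArG match was in 17.1% of the 35 windows and 1.63% of 32851 windows of all genes, and a MEF2 match in 17.1 and 3.19%. The Ldb3 windows overlap each other and hold the same CArG site, which is therefore counted in each of them. The CArG genes were Actc1, Ldb3, Myl3, Myom1 and Nebl, and the MEF2 genes Mybpc3, Myom3, Myoz2, Synpo2l and Ttn. They took different directions with prednisone in MI, from -1.49 for Nebl to 0.33 for Myl3. TATAAA, the TATA box, was found in 14.3% of the windows beside 13.6% of all, CACGTG, an E-box, in 8.57 beside 7.15%, and the palindromic glucocorticoid response element in 0 of 35 beside 0.00913% of all. The motifs may overlap one another, and a match is a description of letters only. Some windows lie far from any annotated transcript start of their gene. The start sites of the Myl2 windows are 8227 and 7762 bases from the nearest one, and that of a Nebl window 60878 bases. The window of Myl3, one of the 5 genes that rose with prednisone in MI, is shown with its CArG match in capitals, 85 bases before the start.
Myl3, chr9:110763428-110763727, plus strand, GRCm38.p6: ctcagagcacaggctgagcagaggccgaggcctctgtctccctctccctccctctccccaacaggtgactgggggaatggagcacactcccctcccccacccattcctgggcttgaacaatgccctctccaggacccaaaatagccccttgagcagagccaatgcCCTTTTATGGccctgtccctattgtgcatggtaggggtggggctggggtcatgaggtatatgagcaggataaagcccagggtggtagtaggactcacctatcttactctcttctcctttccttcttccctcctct

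A further 52 sarcomere genes outside the 32 were listed, of which 47 were tested. In MI under vehicle 12 were higher and 4 lower, including the fetal-type genes beta-myosin heavy chain Myh7 (2.52), skeletal actin Acta1 (2.02) and the titin-binding stress protein Ankrd1 (1.82), and in the other direction Tmod4 (-0.80), alpha-myosin heavy chain Myh6 (-0.61) and telethonin Tcap (-0.48). Under prednisone 4 were higher and 11 lower in MI, with Myh7 (1.81), Acta1 (1.69) and Ankrd1 (1.08) again highest and Cmya5 (-1.33), the CapZ subunit gene Capza2 (-0.96) and Nexn (-0.95) lowest. Prednisone against vehicle in MI raised 6 and lowered 14, with Myl7 (2.04), Myl4 (1.98) and Myh7b (1.27) at one end and Actn1 (-1.37), Capza2 (-1.08) and Tcap (-0.96) at the other. In sham hearts Tcap alone was called, at 1829 ± 42.7 TPM with vehicle and 627 ± 43.6 TPM with prednisone (SD, n = 3), a difference of -1.55. The interaction was called for 3 higher and 10 lower. Of all tested genes, 15.1% were higher and 0.904% lower in MI under vehicle. In MI under prednisone these shares were 2.73 and 14.1%, and with prednisone in MI 2.5 and 34.9%. For prednisone in sham hearts 0.114% were called, and for the interaction 0.54% were higher and 20.7% lower. Whether the calls among the 47 genes held under the other settings was not tested. Myh6 is also among the cardiomyocyte markers and Myl4, Myl7 and Mybphl among the atrial markers.

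**Figure D5:**
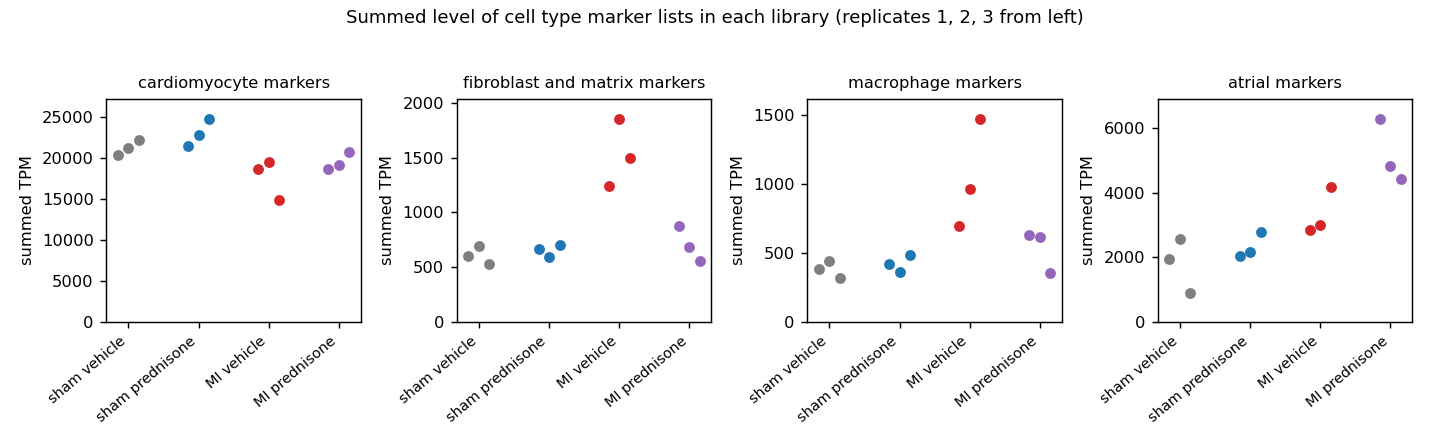
Summed TPM (y axis, from 0) of the cardiomyocyte, fibroblast, macrophage and atrial marker lists in each library, with the replicates of each group as points. Fibroblast and macrophage markers are highest in the vehicle-treated MI hearts, and atrial markers in the prednisone-treated MI hearts at 4435 to 6278 TPM.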

How the data were processed

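Bulk poly(A) RNA libraries of myocardium from 12 mice were analysed from 1 table in which the authors deposited TPM for 105129 transcripts, named by identifier and symbol; each library sums to 1000000. The submitters' processing notes name mm10, Trimmomatic, HISAT2 and kallisto, with no versions or roles; per the labels' protocols the libraries were stranded. Of the transcript identifiers 94.7% were found in GENCODE M21, which gave lengths, exons and positions. No per-sample column was left out. TPM was summed per symbol, and genes that reached 1 TPM in 3 or more libraries were fitted as log2(TPM + 1) by limma 3.58.1 in R 4.3.3 with 4 group means over all 12 libraries, a mean-variance trend, and Benjamini-Hochberg adjustment over 13158 genes. A pseudocount of 1 understates the change of low genes. Transcript shares were tested as the log2 ratio of a transcript to the rest of its gene, each plus 1 TPM, for genes averaging at least 5 TPM and mean shares between 10 and 90%. The gene fit was tested on simulated gene levels, with and without the trend. The simulated errors were independent between genes, with no shift of a whole library, and no transcript shares were simulated. Replicates are separate mice, and p-values measure the spread between 3 mice per group.

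The 32 genes, the marker lists and the list of other sarcomere genes were chosen with earlier results of these data known. All 32 genes are named by role. Values in every library are given for called genes among the 6 lowest adjusted p of a comparison and for the genes of each role that changed most and least in size with prednisone in MI. Other genes are given by group means or ranges, other sarcomere genes by counts with the 3 largest called changes in each direction, and marker lists by counts and summed TPM. The alternatives were median-ratio rescaling, rescaling without 31 mitochondrial, nuclear-copy and globin genes, scaling to cardiomyocyte markers, no filter, a pseudocount of 0.1, no trend, only the 2 groups compared, the replicate number as a block, a loess correction for transcript length, the most abundant transcript per gene, shares between 5 and 95%, and leaving out each library.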

Additional observations from a re-analysis of the deposited data

Results flagged for a closer look

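The effect of prednisone differed between MI and sham hearts, by limma's interaction term over all tested genes, for 4 genes and 4 transcripts. In log2 units, as the effect in MI minus that in sham, the difference was 0.67 for Tnni3, the inhibitory troponin subunit, -1.74 for nebulette (Nebl), -0.88 for Pdlim5 and -0.60 for myopalladin (Mypn). Prednisone against vehicle was 0.73 in MI and 0.07 in sham hearts for Tnni3, -1.49 and 0.25 for Nebl, -0.84 and 0.05 for Pdlim5, and -0.20 and 0.40 for Mypn. Nebl kept its call in each of the 12 fits that left out 1 library, Tnni3 in 5, and Pdlim5 and Mypn in 3. By limma, scaling to the cardiomyocyte markers and the length correction each ended the calls of Nebl (adjusted p = 0.0904 and 0.0912), Tnni3 (0.18 and 0.226), Pdlim5 (0.415 and 0.538) and Mypn (0.788 and 0.757). Median-ratio rescaling ended those of Pdlim5 (0.61) and Mypn (0.874).

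Among transcripts, as the log2 ratio to the rest of the gene, the difference was -2.45 for the full-length Myom2-201 and 3.65 for the short Myom2-205, -2.24 for Pdlim5-202, and -2.23 for Synpo2l-202. Synpo2l-202 held 23.1, 16.2 and 20.8% of its gene in vehicle-treated MI hearts and 1.39, 1.06 and 9.77% in prednisone-treated MI hearts, against 22.5 to 29.3% and 23.0 to 33.4% in vehicle-treated and prednisone-treated sham hearts. Both Myom2 transcripts kept their call in each of the 12 fits, Pdlim5-202 in 11, lost without prednisone-treated MI replicate 1, and Synpo2l-202 in 6. Over all tested transcripts 23.2% were called for this interaction.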

How the results depend on the processing

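Counts below are of the 32 genes called and medians are over the 32 genes (29 with the length correction), in log2 units. Median-ratio rescaling gave medians of -0.44 for MI against sham under vehicle, 0.26 for prednisone against vehicle in MI and 0.31 for the interaction, with 1 gene called (lower) for MI against sham under prednisone and 2 for the interaction (1 higher and 1 lower). Removing mitochondrial, nuclear-copy and globin genes gave a median of -0.24 for MI under vehicle and counts of 5, 6 and 2 for MI under prednisone, prednisone in MI and the interaction. Those 3 counts stand beside 24.8, 38.6 and 18.6% of all genes tested in that setting. Scaling to cardiomyocyte markers gave counts of 9, 20, 6 and 0 for MI under vehicle, MI under prednisone, prednisone in MI and the interaction, with medians of 0.29, 0.50, 0.10 and 0.19. The 9 were all higher, against 1 higher and 2 lower in the fit reported, and the 20 were 19 higher and 1 lower, against 0 and 8; the 0 came from limma. Without the filter the counts were 1, 3, 3 and 1 in that order, with only the 2 groups compared 0 for MI under vehicle and 1 for prednisone in MI by limma, and without the trend 2 for the interaction. The length correction gave counts of 1, 1, 5 and 1 and medians of -0.42 for MI under vehicle, 0.40 for prednisone in MI and 0.25 for the interaction. Its counts stand beside 4.94, 12.2, 16.3 and 2.09% of all genes tested in that setting. Shares between 5 and 95% gave 20, 19 and 9 transcripts called for MI under prednisone, prednisone in MI and the interaction, and only the 2 groups gave 4 for prednisone in MI; the wider range tests more transcripts. The cause of the other changes was not tested.

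Leaving out 1 library gave 0 to 6 genes for MI under vehicle (medians -0.08 to 0.07), 2 to 15 for MI under prednisone (-0.27 to -0.17), 4 to 14 for prednisone in MI (-0.26 to -0.10), 0 for prednisone in sham (0.05 to 0.15) and 1 to 12 for the interaction (-0.35 to -0.18), and 12 to 14, 6 to 12 and 2 to 8 transcripts for MI under prednisone, prednisone in MI and the interaction.

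Calls that changed sign did so under 3 settings. Scaling to cardiomyocyte markers moved MI against sham under prednisone to 0.24 for Tmod1, 0.23 for Lmod3, 0.19 for Ldb3, 0.13 for Mypn, 0.21 for Smyd1 and 0.019 for Trim55. Median-ratio rescaling moved prednisone against vehicle in MI to 0.026 for Lmod2, 0.055 for Capzb and 0.033 for Smyd1. The length correction, with or without the block, moved it to 0.022 for Synpo2l and 0.12 for Smyd1, and the Mypn interaction to 0.16. The cause was not tested.

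The labels number replicates 1 to 3 in every group. Deviations of same-numbered libraries had mean correlations of -0.37, -0.05, -0.25 and 0.003 in MI under vehicle, MI under prednisone, prednisone in MI and prednisone in sham, so the numbers were not taken as pairs. With the replicate block the interaction was called for 1 gene, Nebl, and the other counts stayed within 1.5 times; the length correction in a fit that also had the block gave counts of 0, 1, 2 and 0 for MI under vehicle, MI under prednisone, prednisone in MI and the interaction, with medians of -0.42, 0.40 and 0.25 for MI under vehicle, prednisone in MI and the interaction.

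The read number is unknown, so the limit that depth sets on low genes such as Myom3 could not be given.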

Other observations

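Actn2 transcripts shifted while the gene's level hardly moved with prednisone in MI. Actn2-203 has 894 codons, as Actn2-201 does, and their coding sequences were not compared. Actn2-203 was near 0 in the 9 libraries outside the prednisone-treated MI group. In prednisone-treated MI replicates 1, 2 and 3 it stood at 113, 85.9 and 10.0 TPM, or 27.9, 20.2 and 2.23% of the gene. Its mean share was under 10%, so it was not among the tested transcripts, and it was picked out after its values were seen. Transcripts of nuclear copies of mitochondrial DNA took 17.7, 20.3 and 15.3% of the same 3 libraries and 9.32 to 14.6% of the others.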
